A study of Drosophila melanogaster with 6 samples.

Results

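The odorant-binding protein (Obp) genes of Drosophila melanogaster were examined in whole embryos, in wild type and in sage mutants. A member was any gene whose annotated symbol starts with Obp and a digit. Each was read from a probe set that names it alone, and from the brightest of these over the 6 arrays where there were several. 47 of the 51 Obp genes in the RefSeq gene table had such a probe set, among 11982 genes measured in the same way. Obp83a, Obp57d, Obp50b and Obp50c had none. lush, an odorant-binding protein gene that carries another name, was kept outside the family count.

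Odorant-binding proteins are small secreted proteins folded around disulphide bonds, with a pocket that holds small hydrophobic molecules. The best known members are released by the support cells of olfactory and taste hairs into the fluid around the sensory neurons, where they bind odorants and pheromones. Other members are made outside sense organs, in tissues such as fat body, gut, glia and the male reproductive tract. The larval nose and taste organs, which use part of the family, are built during embryonic development.

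RNA came from embryos of stages 11 to 16, kept at 25 °C and passed through a large-particle flow sorter before extraction. One group was the wild type strain Oregon R (3 arrays) and the other was sage mutant (3 arrays), matched in age. The sage gene encodes a basic helix-loop-helix protein that controls transcription in the salivary gland of the embryo, and its targets were what the series looked for. The labels give neither the sage allele, nor the genetic background of the mutant, nor whether a balancer chromosome was present, and they do not say that replicates were separate collections. Loss of sage and any difference in background from Oregon R cannot be told apart for any gene, and p-values cover no more than the spread among the arrays, which may be technical.

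The deposited values are 1 RMA signal per probe set and array, on a log2 scale, and array medians lay between 5.89 and 6.01. sage was read at 8.21, 8.61 and 7.93 in wild type and at 5.28, 5.44 and 5.12 in the mutants, in the order of replicates 1 to 3, with no overlap between the groups. Markers of embryonic tissues were counted above the reference level defined below on all wild type arrays. They were 11 of 12 glia markers, 10 of 13 epidermis markers and 7 of 9 early segmentation genes. The neuron list had 6 of 10, the midgut list 4 of 8 and the fat body and hemocyte list 5 of 10. Of all 11982 genes, 6997 lay above it. Wild type replicate 2 was least like its own group, with a mean correlation of 0.977 across probe sets where wild type replicates 1 and 3 had 0.986 and 0.985. In 5 control pairs, the signal near the 5′ end minus that near the 3′ end averaged −1.84 ± 0.08 on wild type arrays and −3.68 ± 0.61 on mutant arrays (SD, n = 3 each). It was lowest, at −4.35, in mutant replicate 1.

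Which Obp genes gave signal in the embryo was judged against genes of other life stages, since no detection calls were used here. 25 reference genes were taken, 11 larval glue genes and 14 genes of the eggshell or the male accessory glands of adults, and 95% of their values on the 6 arrays lay at or under 6.26. This value is called the reference level. Probe sets differ in brightness for the same amount of RNA, so signals of different Obp genes do not rank their transcripts. A gene under the level may still be made in a few cells of the whole embryo.

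9 of the 47 Obp genes lay above the reference level on all 3 wild type arrays, against 6997 of all 11982 genes. The 9 were Obp99a, Obp99c, Obp83g, Obp56a, Obp44a, Obp18a, Obp28a, Obp99b and Obp47b. Obp99a had wild type signals of 12.66, 13.29 and 12.58, and Obp99c had 11.22, 11.92 and 11.08. Obp83g had 11.06, 10.18 and 11.61, and Obp56a had 10.79, 11.31 and 10.35. These 4 genes had the brightest signals of the family, and each lay far above the level on every wild type array. Obp44a, known as a glial protein of the nervous system, had 9.69, 9.62 and 10.06. Obp18a had 9.14, 9.60 and 8.70. Obp28a, abundant in the adult antenna, had 8.25, 8.43 and 8.35. Obp99b, also known as turn on sex-specificity and male-biased in the adult head fat body, was closer to the level, at 7.06, 7.65 and 6.73. Obp47b had 6.73, 6.62 and 7.03. Obp47b belongs to the Plus-C class, whose proteins carry additional cysteines.

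Obp83cd and Obp56d exceeded the level on 2 of 3 wild type arrays, wild type replicate 2 being the exception for both. Obp83cd encodes a protein with a pair of odorant-binding domains. Its wild type signals were 6.96, 6.18 and 6.90, and those of Obp56d were 6.85, 5.94 and 6.97. The other 36 Obp genes were under the level on all 3 wild type arrays.

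33 Obp genes did not clear the reference level on all 3 arrays of either group. They included well known antennal proteins: Obp83b (OS-E), Obp84a, Obp69a and Obp19d had wild type means of 5.01, 4.26, 4.06 and 5.41. lush, which is needed for the response to a male pheromone, had a wild type mean of 4.61 and a mutant mean of 4.51. Every measured member of the Obp19, Obp57 and Obp58/59 groups of neighbouring genes was among the 33. So was Obp56g, known from the male ejaculatory bulb, with means of 5.27 and 5.30. Among the 33, Obp83ef came nearest to the level, with 5.92, 6.15 and 5.91 in wild type and 6.15, 7.10 and 6.81 in the mutants.

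**Figure D1:**
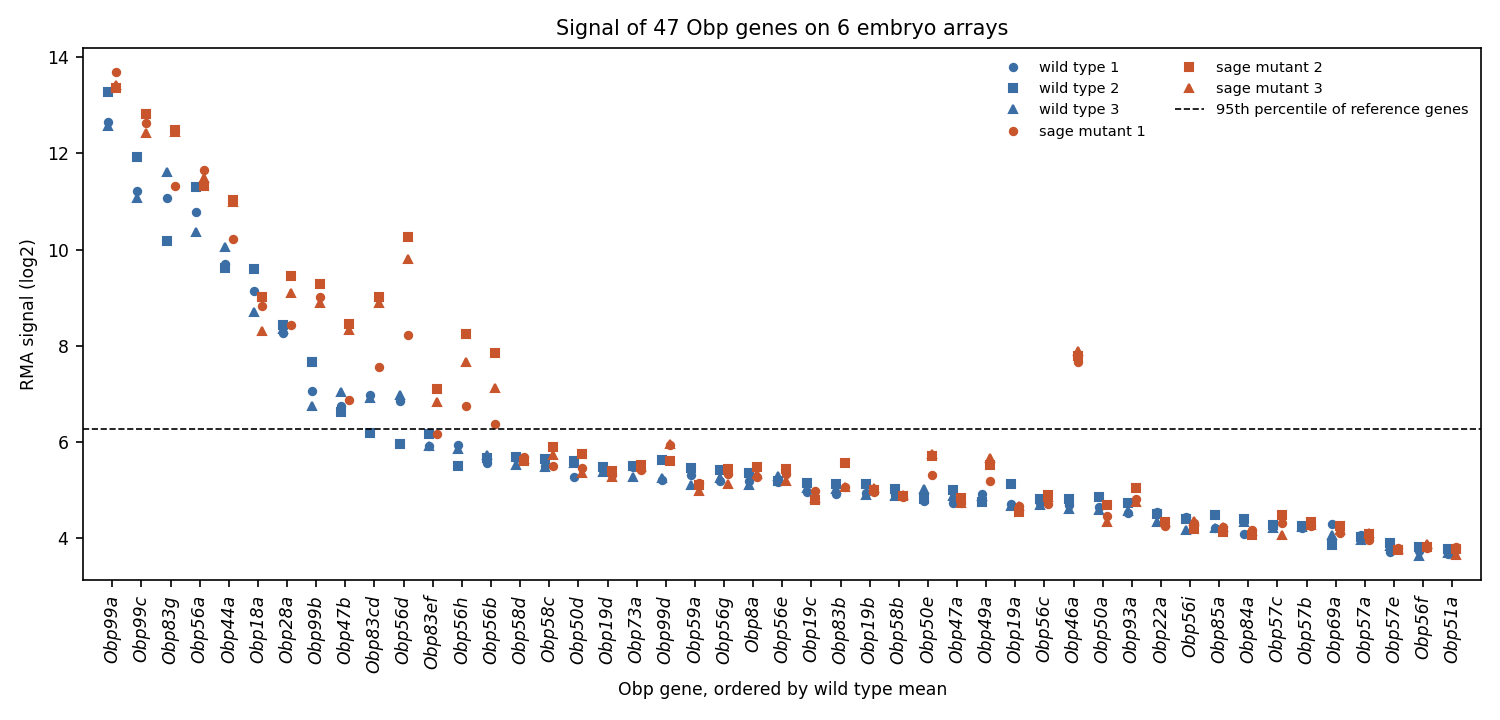
RMA signal (log2) of each of the 47 Obp genes on each of the 6 arrays, ordered by wild type mean; blue points are wild type, orange points sage mutant, and the shape gives the replicate number. The dashed line is the reference level of 6.26. 9 genes lie above it on all wild type arrays, and Obp46a, Obp56h and Obp56b lie below it on every wild type array and above it on every mutant array.

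The comparison of sage mutants with wild type asked which Obp genes differ in embryos that lack sage. 4 Obp genes rose and none fell. Obp46a rose 8.41-fold, Obp56d 7.19-fold, Obp99b 3.77-fold and Obp99c 2.34-fold. The test was limma on all 18769 probe sets with Benjamini-Hochberg adjustment, at an adjusted p under 0.05. At an unadjusted p under 0.05, 17 Obp genes were higher and 0 lower, where 12.1% of all genes were higher and 10.3% lower. Across all genes measured in the same way, 2.88% rose and 2.1% fell, against 8.51% and 0% of the Obp genes. Most Obp genes lay under the reference level in wild type, where a fall can hardly be seen. Of the 9 Obp genes above it on all wild type arrays, 2 rose and 0 fell. Over the 6997 genes chosen in the same way, 2.13% rose and 3.22% fell. After arrays were centred on their medians, 47.4% of all called genes were higher in place of 57.8%, and the Obp counts were still 4 higher and 0 lower. The median log2 change was 0.10 over the 47 Obp genes and −0.01 over all 11982 genes. Measured in whole embryos, a change in the number of cells that make a transcript and a change in the amount per cell cannot be told apart.

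Obp46a, a Plus-C member, gave 4.68, 4.81 and 4.60 in wild type and 7.66, 7.77 and 7.88 in the mutants. All wild type values lay under the reference level and all mutant values above it, as they also did for Obp56h and Obp56b. The Obp46a means of 4.70 ± 0.11 in wild type and 7.77 ± 0.11 in the mutants (SD, n = 3 each) differed by 3.07 on the log2 scale (SE 0.11, limma adjusted p = 0.00014). The spread within each group was small beside the change, and Obp46a passed the test without any 1 of the 6 arrays. Since its wild type signal is that of genes not made in embryos, the fold is not exact. Its nearest measured neighbours on the chromosome, CG12909 and Ndg, had log2 changes of −0.56 and 0.09 (limma adjusted p = 0.173 and 0.842).

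Obp99b gave 7.06, 7.65 and 6.73 in wild type and 9.02, 9.29 and 8.89 in the mutants, with no overlap. Its log2 change was 1.92 (SE 0.24, limma adjusted p = 0.0135). It did not pass without wild type replicate 1 (adjusted p = 0.0625), mutant replicate 2 (0.0728) or mutant replicate 3 (0.0728).

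Obp99c gave 11.22, 11.92 and 11.08 in wild type and 12.64, 12.83 and 12.42 in the mutants, again without overlap. Its log2 change was 1.22 (SE 0.24, limma adjusted p = 0.0442). It passed without wild type replicate 2 (adjusted p = 0.00585) and in no other set of 5 arrays, where adjusted p-values ran from 0.0799 to 0.181. It also lost its call after median centring (adjusted p = 0.0532).

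Obp56d gave 6.85, 5.94 and 6.97 in wild type and 8.23, 10.26 and 9.81 in the mutants. Every mutant value exceeded every wild type value, but mutant replicate 1 lay well below the other mutant arrays. The means of 6.59 ± 0.56 in wild type and 9.43 ± 1.07 in the mutants (SD, n = 3 each) differed by 2.85 on the log2 scale (SE 0.55, limma adjusted p = 0.0441). Since wild type replicate 2 lay under the reference level, its fold is not exact. With 5 arrays it passed only when mutant replicate 1 was left out (adjusted p = 0.01). With the replicate number as a block its adjusted p was 0.0741, and after quantile normalization it was 0.0553.

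Beyond the 4 called genes, 11 more had all mutant values above all wild type values, so that 15 of 47 did (31.9%) against 12.9% of all genes. 1 of 47 had all mutant values below all wild type values, against 13.4% of all genes. That gene was Obp22a, at 4.53, 4.50 and 4.33 in wild type and 4.24, 4.32 and 4.32 in the mutants (log2 change −0.16, limma adjusted p = 0.447). It lay far under the reference level in both groups. Of the 9 Obp genes above the level on all wild type arrays, 6 had all mutant values above all wild type values and 0 below. Over the 6997 genes chosen in the same way, the shares were 10.8% and 15.2%.

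Obp83cd and Obp56h had the largest changes among the genes that did not pass. Obp83cd gave 6.96, 6.18 and 6.90 in wild type and 7.55, 9.0 and 8.89 in the mutants (log2 change 1.80, SE 0.42, limma adjusted p = 0.0739). Obp56h, known for effects on male mating behaviour, gave 5.94, 5.50 and 5.85 against 6.73, 8.25 and 7.66 (log2 change 1.79, SE 0.37, limma adjusted p = 0.0523). In both, the groups did not overlap and mutant replicate 1 was the lowest mutant array. Obp50e was as near to the threshold, with 4.77, 4.81 and 5.01 against 5.31, 5.70 and 5.73 (log2 change 0.72, SE 0.15, limma adjusted p = 0.051). It was singled out after its values were seen, and it stayed under the reference level. It passed with the replicate block (adjusted p = 0.0488) and after quantile normalization (0.0479), but not after median centring (0.0601). With 1 array left out it passed in 1 of 6 fits, with adjusted p-values up to 0.199.

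Of the bright Obp genes, Obp44a gave 10.21, 11.04 and 10.99 in the mutants (log2 change 0.96, SE 0.25, limma adjusted p = 0.097), all above its wild type values. Obp28a gave 8.43, 9.44 and 9.10 (log2 change 0.65, limma adjusted p = 0.228), where mutant replicate 1 was level with the highest wild type array. Obp99a gave 13.70, 13.35 and 13.44 (log2 change 0.66, limma adjusted p = 0.158) and Obp56a gave 11.66, 11.32 and 11.50 (log2 change 0.68, limma adjusted p = 0.202). In these, the lowest mutant value was barely above the highest wild type value. Obp83g gave 11.32, 12.48 and 12.44 (log2 change 1.13, limma adjusted p = 0.244), and Obp47b gave 6.85, 8.45 and 8.33 (log2 change 1.09, limma adjusted p = 0.231). For both, mutant replicate 1 lay within the wild type range.

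Obp18a was the only gene above the reference level in wild type whose mean was lower in the mutants. It gave 8.83, 9.01 and 8.31 there, and the groups overlapped (log2 change −0.43, SE 0.27, limma adjusted p = 0.487). With arrays matched by replicate number, it was lower in the mutant in all 3 cases. With the replicate block it did not pass either, with an SE of 0.10, an unadjusted limma p of 0.00997 and an adjusted p of 0.104. The next largest negative changes were those of Obp59a, an adult humidity-sensing gene, and of Obp19a, Obp50a and Obp19c. Their log2 changes were −0.22, −0.21, −0.20 and −0.18, with limma adjusted p-values between 0.403 and 0.532. All 4 lay under the reference level on every array. Second, dimmer probe sets of Obp19a, Obp19c and Obp59a had changes of −0.01, −0.03 and 0.04 and did not pass either. Of the 33 genes that did not clear the level in either group, 29 had a log2 change within 0.3 of zero.

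**Figure D2:**
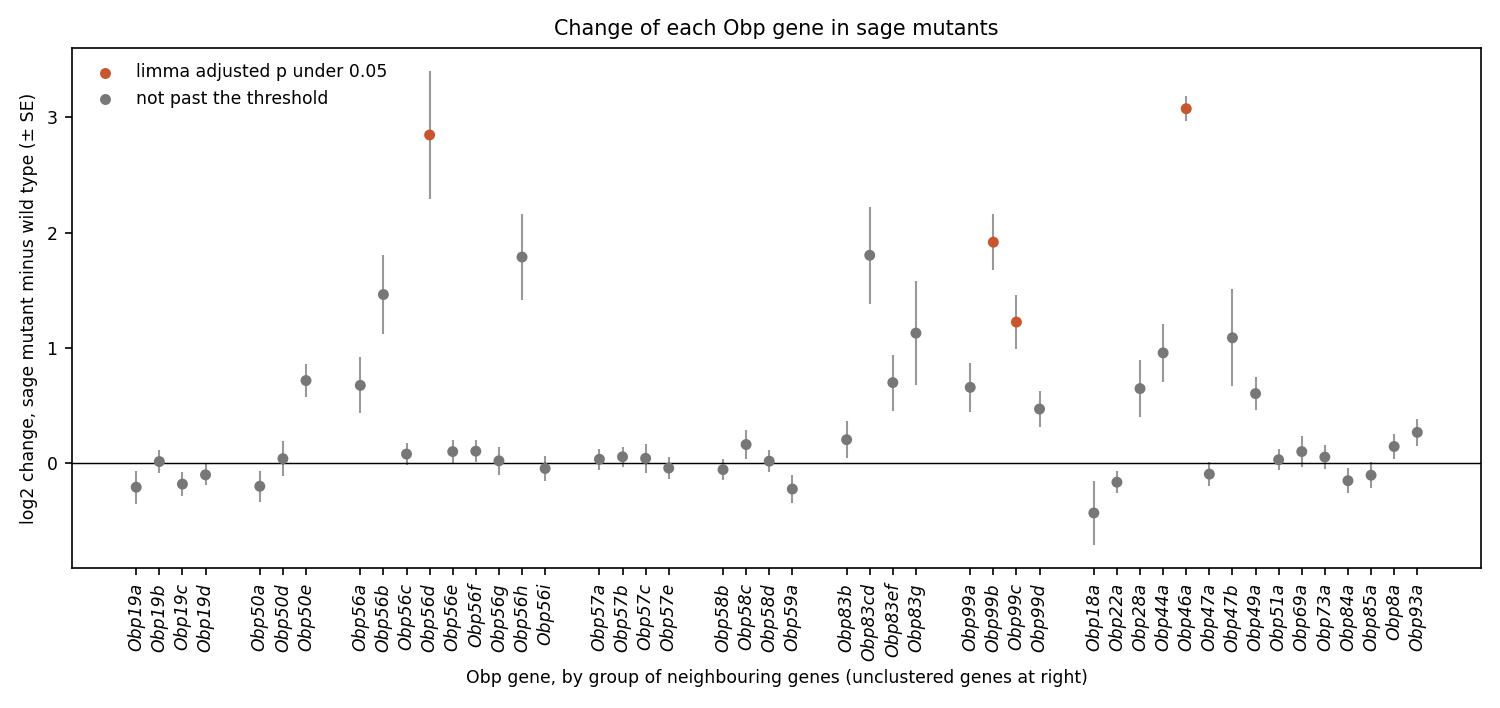
Log2 change of each of the 47 Obp genes, sage mutant minus wild type, with its limma standard error, arranged by groups of neighbouring Obp genes and with unclustered genes at the right. Orange marks the 4 genes past the threshold; the Obp19, Obp57 and Obp58/59 genes sit near 0, while the 4 Obp99 genes all lie above it, 2 of them past the threshold.

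Obp genes lie in runs along the chromosomes. Runs were defined by gene order, as Obp genes with at most 10 other genes between them. In the run from Obp56a to Obp56i on arm 2R, 1 of 9 genes rose, Obp56d. Its direct neighbours Obp56c and Obp56e had log2 changes of 0.08 and 0.10 (limma adjusted p = 0.756 and 0.7), with means between 4.73 and 5.30 in both groups. Obp56b, the next gene beyond Obp56c, went from 5.56, 5.66 and 5.72 to 6.37, 7.85 and 7.11 (log2 change 1.46, SE 0.34, limma adjusted p = 0.0756). In the run of Obp99a, Obp99c, Obp99d and Obp99b on arm 3R, 2 of 4 rose, and the others had changes of 0.66 (Obp99a) and 0.47 (Obp99d, limma adjusted p = 0.181). Gycalpha99B, which adjoins Obp99c and encodes a guanylyl cyclase subunit, also rose (log2 change 1.19, limma adjusted p = 0.0286, and 0.064 with the replicate block), while Dup99B beside Obp99b had −0.28 (0.188). In the run from Obp83a to Obp83g on 3R none of the 4 measured genes passed, with changes from 0.20 to 1.80. None passed in the Obp19 run on X (changes from −0.21 to 0.02), the Obp50 run on 2R (−0.20 to 0.72), the Obp57 run on 2R (−0.04 to 0.06) or the Obp58/59 run on 2R (−0.22 to 0.16).

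Of the 11 measured members of the Plus-C class, a list drawn up after the values were seen, 1 rose, Obp46a, and 1 lay above the reference level in wild type, Obp47b. Obp49a, a taste-organ protein that binds bitter compounds, went from 4.90, 4.75 and 4.87 to 5.18, 5.51 and 5.65 (log2 change 0.60, SE 0.14, limma adjusted p = 0.0733). The class median was 0.16. Obp50b and Obp50c share 2 probe sets, with log2 changes of −0.13 and −0.01 (limma adjusted p = 0.678 and 0.98). Obp57d shares 2 with the cuticle gene Cpr57A. The brighter went from 6.60, 6.17 and 6.79 to 6.82, 8.06 and 7.39 (log2 change 0.90, limma adjusted p = 0.204), and which gene gave that signal is unknown.

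Replicates of the Obp genes did not all vary in the same order. 14 Obp genes lay above the reference level on all arrays of at least 1 group. Mutant replicate 1 was the lowest mutant array for 9 of them (64.3%), and it was so for 32.7% of the 7423 genes chosen by the same level. Mutant replicate 2 was the highest mutant array for 11 of 14 (78.6%), against 24.7% of those genes. The 9 were Obp28a, Obp44a, Obp46a, Obp47b, Obp56b, Obp56d, Obp56h, Obp83cd and Obp83g, and wild type replicate 2 was the lowest wild type array for 6 of them. Of the 14, 5 cleared the level on all mutant arrays but not on all wild type arrays, against 426 of the 7423 genes. These 5, Obp46a, Obp56b, Obp56d, Obp56h and Obp83cd, are all among the 9. The 14 and the 7423 thus differ in make-up, which limits the comparison of their mutant order. The remaining 5, Obp18a, Obp56a, Obp99a, Obp99b and Obp99c, had their highest wild type value in replicate 2 and their lowest in replicate 3. Obp46a, among the 9, had its highest and lowest wild type values there too, and Obp28a also had its highest in replicate 2. The mutant values of Obp46a spanned only 0.21. Over all 14, wild type replicate 2 was the highest wild type array for 7, against 48.3% of the 7423 genes. It was the lowest for 6 (42.9%, against 37.7%), and wild type replicate 3 was the lowest for 6 (42.9%, against 36.5%). The wild type order of the 14 was thus close to that of all genes, unlike the mutant order. All these counts are over genes that share the same 6 arrays, and no test was made of them.

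Without mutant replicate 1, which had the lowest control difference between 5′ and 3′ signal, 12 Obp genes rose in place of 4. Over all genes 4.47% rose at this setting, in place of 2.88%. The 12 Obp genes included Obp56d, Obp56h, Obp56b, Obp83cd, Obp44a, Obp28a and Obp47b, but not Obp99c. Leaving out mutant replicate 2, mutant replicate 3 or wild type replicate 1 left 1, Obp46a. The shares of all genes that rose then fell as well, to 0.526%, 0.517% and 0.743%. Without wild type replicate 3, 2 Obp genes and 1.03% of all genes rose. Without wild type replicate 2, 5 Obp genes did, with Obp56a and Obp99a in place of Obp56d, and 4.42% of all genes. With both mutant replicate 1 and wild type replicate 2 left out, a setting added after the data were seen, 16 Obp genes and 12.4% of all genes rose. RNA quality entered the fits only through 1 covariate, the difference between 5′ and 3′ control signals, which does not overlap between the groups. With it in the fit no probe set of the array passed, and Obp46a, Obp56d, Obp99b and Obp99c had log2 changes of 3.42, 5.43, 2.03 and 1.20 (SE 0.29, 1.18, 0.74 and 0.72). 12 Obp genes were then higher at an unadjusted p under 0.05 and none lower. Of all 18769 probe sets, 1613 were under that p in either direction. Since the covariate separates the groups, this fit cannot tell RNA quality from group.

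**Figure D3:**
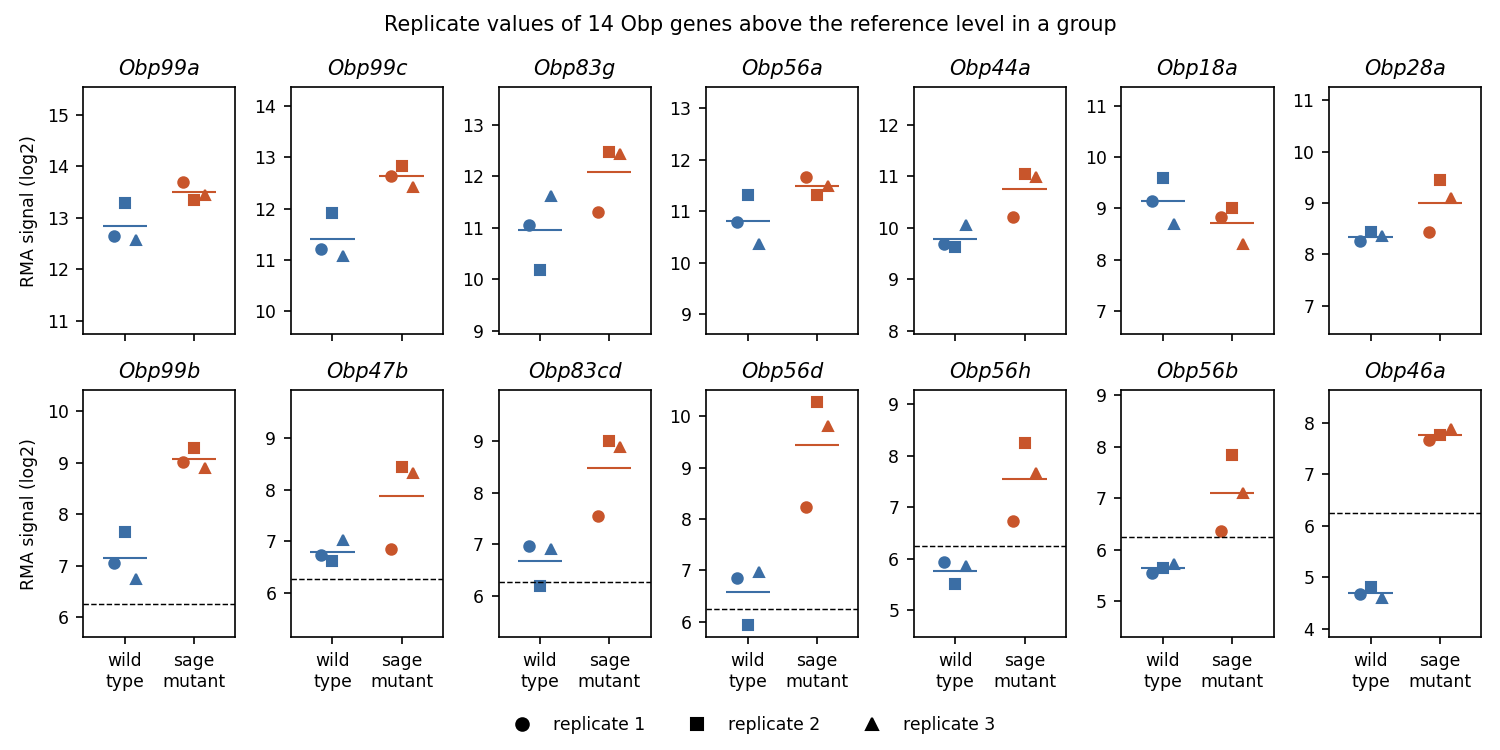
RMA signal (log2) on each array for the 14 Obp genes above the reference level (dashed line, where in range) in at least 1 group; blue is wild type, orange sage mutant, shape gives the replicate, and the line the mean of 3 arrays. Every panel spans the same number of log2 units; Obp46a has tight groups, whereas in Obp56d, Obp83cd and Obp47b mutant replicate 1 lies well below the other mutant arrays.

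Receptor genes stayed at the level of genes of other life stages. Of 166 measured odorant, gustatory and ionotropic receptor genes, none lay above the reference level on all arrays of either group. 1 fell, Ir76a, from 5.58, 5.35 and 5.87 to 4.74, 4.66 and 4.71 (log2 change −0.90, limma adjusted p = 0.0262), and none rose. The list had a median log2 change of −0.02. Of 16 regulators of olfactory organs and sensory partners, 1 rose, acj6, a POU factor of olfactory neurons, from 4.76, 4.41 and 4.62 to 5.54, 5.17 and 5.51 (log2 change 0.81, limma adjusted p = 0.0361). None fell, and the list's median was 0.04.

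Among 19 measured genes of other soluble carriers of small lipophilic molecules, 2 rose and 1 fell. Npc2d, of the Niemann-Pick type C2 family of sterol-binding proteins, rose from values between 4.96 and 5.02 to 6.07, 6.91 and 6.56 (log2 change 1.52, limma adjusted p = 0.0168). The lipocalin gene NLaz rose from 8.0, 8.43 and 7.69 to 9.04, 9.21 and 9.27 (log2 change 1.14, limma adjusted p = 0.0299, and 0.0507 with the replicate block). Npc2g fell from 11.25, 11.38 and 11.26 to 10.45, 10.39 and 10.62 (log2 change −0.81, limma adjusted p = 0.0135). EbpIII, a chemosensory protein of the ejaculatory bulb, had 9.45, 8.50 and 9.69 in wild type and 9.82, 11.29 and 11.01 in the mutants (log2 change 1.49, limma adjusted p = 0.146). It was named after its values were seen, and its order of arrays was that of Obp56d within the mutants and within wild type. The list had a median of 0.31. Ir76a, acj6, Npc2d, NLaz and Npc2g each lost the call without at least 2 of the single arrays.

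Markers of several tissues were read beside the Obp genes. Of 8 midgut markers 3 rose and none fell, where 2.88% of all genes rose and 2.1% fell. They were Jon99Fi, Jon99Ci and alphaTry, all digestive protease genes, with log2 changes of 3.98, 1.63 and 1.44 (limma adjusted p = 0.00464, 0.0138 and 0.0281). Jon99Fi (4.15, 3.41 and 4.20) and Jon99Ci (5.14, 5.04 and 5.38) lay under the reference level in wild type, so the size of their changes is not exact. The mean signal of the midgut list was 6.43 to 6.92 in wild type and 7.80 to 8.47 in the mutants, and mutant replicate 1 was its highest array. None of 13 epidermis and cuticle markers passed limma, with 3 higher at an unadjusted p under 0.05. Their mean signal was 8.91 to 9.18 in wild type and 9.33 to 9.48 in the mutants. Ddc, which makes dopamine for the cuticle late in embryonic development, had 7.37, 6.79 and 7.33 against 7.65, 9.46 and 8.97 (limma adjusted p = 0.133). Its log2 change of 1.53 was the largest of the list. That of ple, with the next smallest p, was 0.32 (limma adjusted p = 0.147). The list's median was 0.19, with 10 changes above 0 and 3 below. The glia list had 1 higher and 1 lower of 12, with means of 9.28 to 9.46 and 9.03 to 9.40. These were ltl (log2 change 1.57, limma adjusted p = 0.0102) and nrv2 (−1.66, 0.0036). At an unadjusted p under 0.05, 2 glia markers were higher and 3 lower, and the list's median was −0.27. The fat body and hemocyte list had 1 higher and 1 lower of 10, NimC1 (0.74, limma adjusted p = 0.0468) and Pxn (−0.77, 0.0231). Its means were 7.79 to 7.99 and 7.89 to 8.02, with 2 higher and 1 lower at that p. No neuron marker passed limma, with 2 of 10 at an unadjusted p under 0.05, and none of the 9 genes of early segmentation passed either, with 0 at that p. The part of these tissues, or of a difference in age between the groups, in the Obp changes was not tested.

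**Figure D4:**
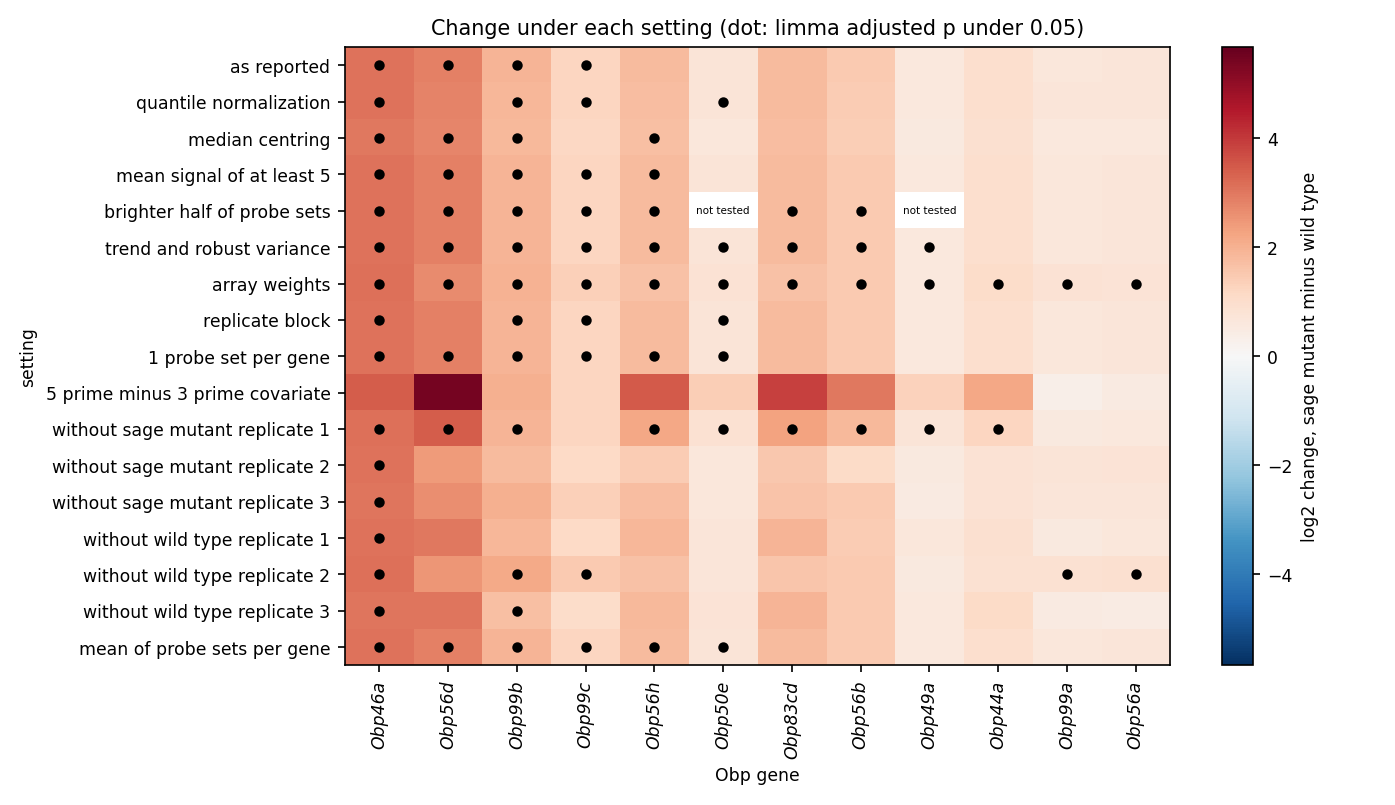
Colour gives the log2 change, sage mutant minus wild type, of 12 Obp genes (columns) under each setting of the analysis (rows), and a dot marks a limma adjusted p under 0.05. All changes shown are above 0; Obp46a keeps its dot in every setting but the covariate, and the other columns gain or lose theirs with the setting; 2 cells are marked as not tested, since a filter removed those probe sets.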

How the data were processed

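Per the labels' protocols, total RNA of sorted embryos was amplified and labelled with a 3′ in vitro transcription kit and hybridised to 1 Affymetrix array per sample. The signals were made with RMA and Partek, per the submitters' processing notes, and the versions are not given in the sources used here. The deposited values were read as log2, from RMA's default and their range. Without counts, depth does not apply, and 3 arrays per group limit the precision.

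The table has 18952 rows, of which 183 are controls and were not tested. Names came from the platform annotation, updated through RefSeq's Release 6 plus ISO1 MT table. 13647 probe sets named 1 gene, 402 several and 4720 none. limma 3.58.1 in R 4.3.3 (lmFit, eBayes, group as the only term) was fitted to all 18769 with Benjamini-Hochberg adjustment, and adjusted p-values are limma's throughout. The steps were tested on simulated data.

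The members and lists were chosen with earlier results of these data known. Genes were named by a rule: those called, the 10 with the highest wild type mean, the 5 largest changes each way, and others as stated. Groups share replicate numbers in the sample titles, and arrays with the same number deviated together from their group means (correlations of 0.17, 0.28 and 0.31). Arrays with different numbers had correlations from −0.30 to 0.14. The titles do not state a pairing. The numbers were used as a block in an alternative fit only, and the reported calls come from the fit without it. Other alternatives were normalization, centring, filters, variance models, array weights, the control 5′ minus 3′ difference, and leaving out arrays. No sequences and no coordinates are given.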

Additional observations from a re-analysis of the deposited data

How the results depend on the processing

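The number of Obp genes that rose was 4 as reported and 7 of the 15 tested in the brighter part of the array. It was 9 when the variance followed a robust trend, 15 when arrays were weighted and 0 with the covariate for control signal. Over all genes, 2.88%, 3.29%, 3.94%, 10.7% and 0% rose at these settings, in the same order. The Obp count was 4 after quantile normalization, 4 after median centring and 5 of 28 tested with a mean signal of at least 5. The shares of all genes were then 2.45%, 2.42% and 3.47%. The Obp count was 6 with 1 probe set per gene (3.02% of all genes) or with the mean of a gene's probe sets. Leaving out 1 array gave 1 to 12, and leaving out wild type replicate 2 with mutant replicate 1, an alternative added after the data were seen, gave 16. With the replicate block it was 4, with Obp50e in place of Obp56d, as after quantile normalization, and the block changed no call of the other Obp genes. No Obp gene passed as lower under any of these. At an unadjusted p under 0.05, Obp18a was lower with the replicate block, Obp59a with array weights, and both without wild type replicate 3. All probe sets called numbered 757, against 2737 with array weights, 641 with the replicate block, 0 with the covariate (1613 at an unadjusted p under 0.05) and 134 to 1111 with 1 array left out. Of 201 receptor, carrier and regulator genes 5 were called, against 2 among the brighter probe sets (27 of them tested), 15 with array weights, 6 with the replicate block, 0 with the covariate (9 higher and 1 lower at an unadjusted p under 0.05) and 0 to 9 with 1 array left out. Array weights and the covariate were computed from the same 6 arrays, and the covariate does not overlap between the groups. The number of Obp genes above the reference level in wild type was 9, and 9 to 12 under the alternatives. 15 of the 47 Obp genes turned direction under at least 1 alternative, and the largest log2 change among them was 0.10 as reported. 9 did so after median centring, Obp19b and Obp57b among them, and Obp56e was at −0.041 with the covariate. Signals near the reference level limit the folds of Obp46a, Obp56d, Obp56h, Obp56b and Obp83cd.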
